A study of Mus musculus with 2 samples.

Results

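Nuclear receptors are transcription factors, many of them switched by small lipophilic ligands such as retinoic acid, vitamin D and steroid hormones. The genes described here are nuclear receptors, among them ones that can recruit Med1, and their coactivators and corepressors. Genes that make, carry or break down vitamin D and retinoid ligands are also included. The members were 43 genes chosen by symbol, of 16593 genes measured, and all their probes were examined. Of the 43 genes, 40 had at least 1 probe, 62 probes in all, and 3 (Nr1h2, Nr3c2 and Ncor1) were not analysed here.

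RNA came from dental epithelial stem cells, the progenitors of enamel-forming ameloblasts, taken from the labial cervical loop of the incisor of 3-month-old C57/BL6 mice. The Med1 knockout was Med1 fl/fl with Krt14 driven Cre, so deletion covers epithelium that has used the keratin 14 promoter, and the control was the Med1 fl/fl littermate without Cre. Both genotypes thus share the loxP-flanked alleles. Cells of 3 mice per genotype were plated sparsely, grown for 7 days without passage in medium with EGF and FGF, and read on 1 Illumina bead array per genotype. The arrays thus carry no replicate error, and no test, standard deviation or p-value between genotypes can be given. Whether the RNA of the 3 mice was pooled is not stated outright in the labels.

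Med1 is a subunit of Mediator, the complex that bridges transcription factors and RNA polymerase II, and it binds ligand-occupied nuclear receptors through short leucine-rich motifs. The p160 coactivators (Ncoa1, Ncoa2 and Ncoa3) bind the same receptor surface and bring histone acetyltransferases, while corepressors hold unliganded receptors silent. In skin, the vitamin D receptor and its retinoid X partner are required for normal hair cycling, and retinoic acid controls keratinocyte differentiation. Feedback between the receptors Nr1d1, Nr1d2 and Rora and the gene Arntl is part of the circadian clock.

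Values are mean bead signals in arbitrary units as deposited, which include background, and log2 differences (Med1 knockout minus control) after background correction and quantile normalization. Detection here means a detection p-value under 0.01, the chance of such a signal among negative control beads. The pooled standard deviation of the difference between probes of 1 gene was 0.31 (1830 genes), a technical measure and the only error available. The number of arrays limits all comparisons below. Of 25697 probes, the knockout array detected 10935 and the control array 11086. The defining epithelial genes were present, since Krt14, Krt5, Trp63, Cdh1, Itgb4, Itga6 and Col17a1, 7 of 7 measured basal epithelial markers, were detected on both, with a summed signal of 97092 in the knockout and 118729.8 in the control. Lower by more than 2-fold in the knockout were Krt5 (2.33-fold) and Itga6 (4.26-fold). The arrays also differed in cell type and sex markers. Of 8 detected mesenchymal markers, 7 were at least 2-fold higher in the knockout, 6 by lower bounds, with a summed signal of 8705 in the knockout and 2709 in the control, while Col1a2, Pdgfra and Pdgfrb were not detected. All 7 detected cornified and suprabasal markers were at least 2-fold higher, with a summed signal of 61335 in the knockout and 3843 in the control. Krt1, the other marker of that list measured, was not detected on either array. Of 5 immune markers measured, 0 were detected, and 2 of 6 endothelial markers were, without Pecam1, Cdh5, Kdr or Tek. By the brightest probe both were on the higher side in the knockout. Egfl7 read 999 in the knockout and 672 in the control, 1.74-fold higher. Flt1, detected in the knockout alone, read 298 in the knockout and 182 in the control, at least 1.82-fold higher. Of 4 Schwann, neural and melanocyte markers measured, 2 were detected, and they went in opposite directions. Mbp was 4.12-fold higher (1223 in the knockout and 433 in the control). Tubb3, detected on the control array only, was at least 1.24-fold lower (230 in the knockout and 261 in the control). The X-inactivation RNA Xist read 3131 in the knockout and 168 in the control by its brighter probe, and the Y-linked Eif2s3y read 888 in the knockout and 2472 in the control. The part that these differences play in the results below was not tested, and in RNA of whole cultures fewer cells of a type and less RNA per cell cannot be told apart.

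Med1 itself read 412 in the knockout and 914 in the control by its brightest probe, 2.81-fold lower after normalization. Another detected Med1 probe read 251 in the knockout and 273 in the control, a log2 difference of -0.28 that is smaller than the between-probe standard deviation. The labels do not place these probes inside or outside the deleted stretch of the gene, so they check the deletion only in part.

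The 3 promoter windows below were picked by gene and motif together, and each is shown because it holds the motif picked for it. The first is that of Rarb, the member receptor with the largest difference by its brightest probe, and the others are those of Arntl and Per1, clock genes that differed in opposite directions beside Nr1d1, Nr1d2 and Rora. Each window runs from 250 bases before to 50 after the RefSeq gene start (build GRCm38.p6), and capitals mark a DR5 retinoic acid response element in Rarb, a ROR response element (RORE), the site type bound by Rora and Nr1d1, in Arntl, and an E-box (CACGTG), the site type bound by Clock and Arntl, in Per1.
Rarb, chr14:16575427-16575726, minus strand: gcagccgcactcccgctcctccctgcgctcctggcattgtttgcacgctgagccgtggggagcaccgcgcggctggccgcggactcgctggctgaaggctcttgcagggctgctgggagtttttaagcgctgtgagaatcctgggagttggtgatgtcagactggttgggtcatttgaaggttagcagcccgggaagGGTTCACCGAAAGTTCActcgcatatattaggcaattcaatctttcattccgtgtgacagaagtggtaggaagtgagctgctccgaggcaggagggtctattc
Arntl, chr7:113207261-113207560, plus strand: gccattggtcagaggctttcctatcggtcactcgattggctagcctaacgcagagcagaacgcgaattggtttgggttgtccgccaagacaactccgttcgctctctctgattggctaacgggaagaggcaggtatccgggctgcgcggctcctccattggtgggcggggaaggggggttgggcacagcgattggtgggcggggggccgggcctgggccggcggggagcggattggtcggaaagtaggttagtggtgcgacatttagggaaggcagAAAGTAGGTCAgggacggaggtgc
Per1, chr11:69098699-69098998, plus strand: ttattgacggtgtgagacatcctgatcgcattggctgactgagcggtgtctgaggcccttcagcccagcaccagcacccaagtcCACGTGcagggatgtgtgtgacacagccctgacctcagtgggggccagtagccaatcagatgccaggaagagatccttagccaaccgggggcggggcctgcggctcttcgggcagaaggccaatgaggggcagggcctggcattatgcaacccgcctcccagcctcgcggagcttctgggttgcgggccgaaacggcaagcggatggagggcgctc
Both strands of 32851 windows were searched. A DR5 element was found in 32 windows (0.0974%), a RORE in 126 (0.384%), the E-box in 2349 (7.15%) and a DR3 element, the type bound by the vitamin D receptor with its retinoid X partner, in 13 (0.0396%). The motifs did not overlap each other in the windows shown. Promoter windows were on hand for 37 members (55 windows). Among them the DR5 element was found in Rarb, the E-box in Rara and Thrb, and DR3 and RORE in none. Among 17 windows of the clock genes described below, the E-box was found in 5 (Bhlhe41, Cry1, Per1 and Tef) and the RORE in 1 (Arntl). Per3 and Cry2, which differed by more than Per1 by the brightest probe, were not among the genes with an E-box match. These matches describe the letters of the windows and do not show binding.

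Of the 40 measured members, 22 (55.0%) were detected on at least 1 array, beside 8217 of all 16593 genes (49.5%). Ncoa4, Rarb and Rxra, 3 of the 22 detected members, were higher by 2-fold or more in the knockout, beside 686 of all detected genes (8.35%). None of the 22 was at least 2-fold lower, beside 536 of all detected genes (6.52%), so 3 of 22 passed 2-fold either way, beside 14.9% of all detected genes. Without background correction 1 member was higher, beside 4.14% of all detected genes, and 0 lower, beside 2.51%. These few members do not set the list apart from that background. The other 19 differed by less than 2-fold. Of the 22, 8 differed by less than the between-probe standard deviation, beside 3638 of all 8217 detected genes. The median difference was -0.15 over the detected members and -0.06 over all detected genes, and the median absolute difference was 0.45 over the members and 0.36 over all detected genes. Of the 22, 10 were higher and 12 lower in the knockout by any amount. The mean of the members was 0.05, opposite in sign to their median, and over the 19 members detected on both arrays the median was 0.003.

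**Figure D1:**
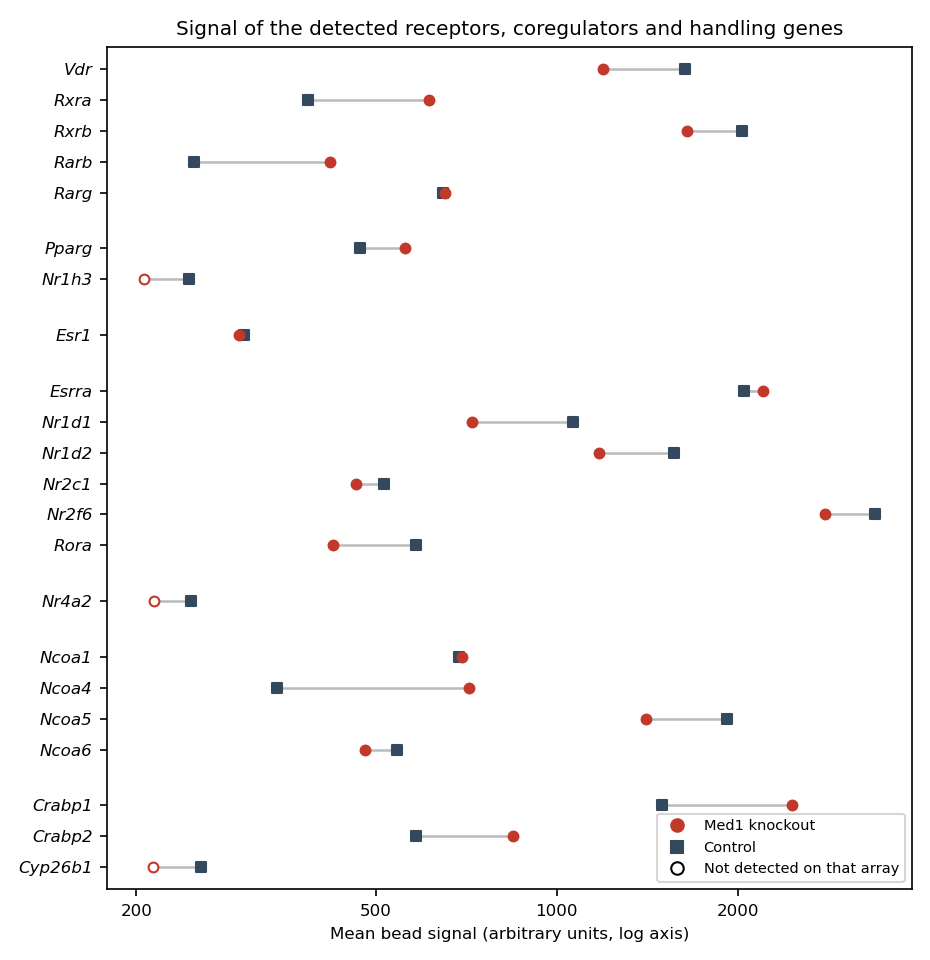
Mean bead signal (arbitrary units, log axis, background included) of the brightest probe of each of the 22 detected members, grouped by role, with circles for the Med1 knockout array and squares for the control array and open symbols where the probe was not detected. The widest gaps with the knockout higher are those of Ncoa4, Rarb and, on this scale with background included, Crabp1, followed by Rxra, and the 3 open circles are Nr1h3, Nr4a2 and Cyp26b1, which were detected on the control array alone.

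The receptors for vitamin D and retinoids went in different directions. Rarb, the retinoic acid receptor beta, whose gene is itself a textbook target of retinoic acid through the DR5 element shown above, read 420.2 in the knockout and 249.7 in the control by its brightest probe. That is 2.98-fold higher after background correction and 1.72-fold higher without it. Another Rarb probe, detected in the knockout alone, read 366 in the knockout and 232 in the control and was at least 2.73-fold higher. Both detected Rarb probes were thus on the higher side, with only a bound for the dimmer one, and the remaining probe was not detected on either array. Rxra, the retinoid X receptor alpha and the main obligate partner of Vdr and the retinoic acid receptors in epidermis, read 614 in the knockout and 385 in the control. It was 2.13-fold higher by its only probe, and 1.66-fold without background correction.

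Rxrb, the beta form of the same partner, read 1648 in the knockout and 2032 in the control, a log2 difference of -0.29. Its other probe gave -0.47. Rarg, the most abundant retinoic acid receptor of epidermis, read 652 in the knockout and 646 in the control, a log2 difference of 0.10. Its other probe detected on both arrays gave 0.18, and a dim probe, detected in the knockout alone, with 256 in the knockout and 176 in the control, was at least 1.25-fold higher. Vdr, the vitamin D receptor, was lower in the knockout by all 3 of its probes, but by unequal amounts. The brightest read 1196 in the knockout and 1635 in the control, 1.36-fold lower. The next read 803 in the knockout and 1479 in the control, 1.97-fold lower, and the dimmest read 459 in the knockout and 534 in the control, 1.17-fold lower. The Vdr probes spanned 0.75 on the log2 scale, more than the between-probe standard deviation, so the size of this difference is not settled. Rara and Rxrg were not detected on either array.

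**Figure D2:**
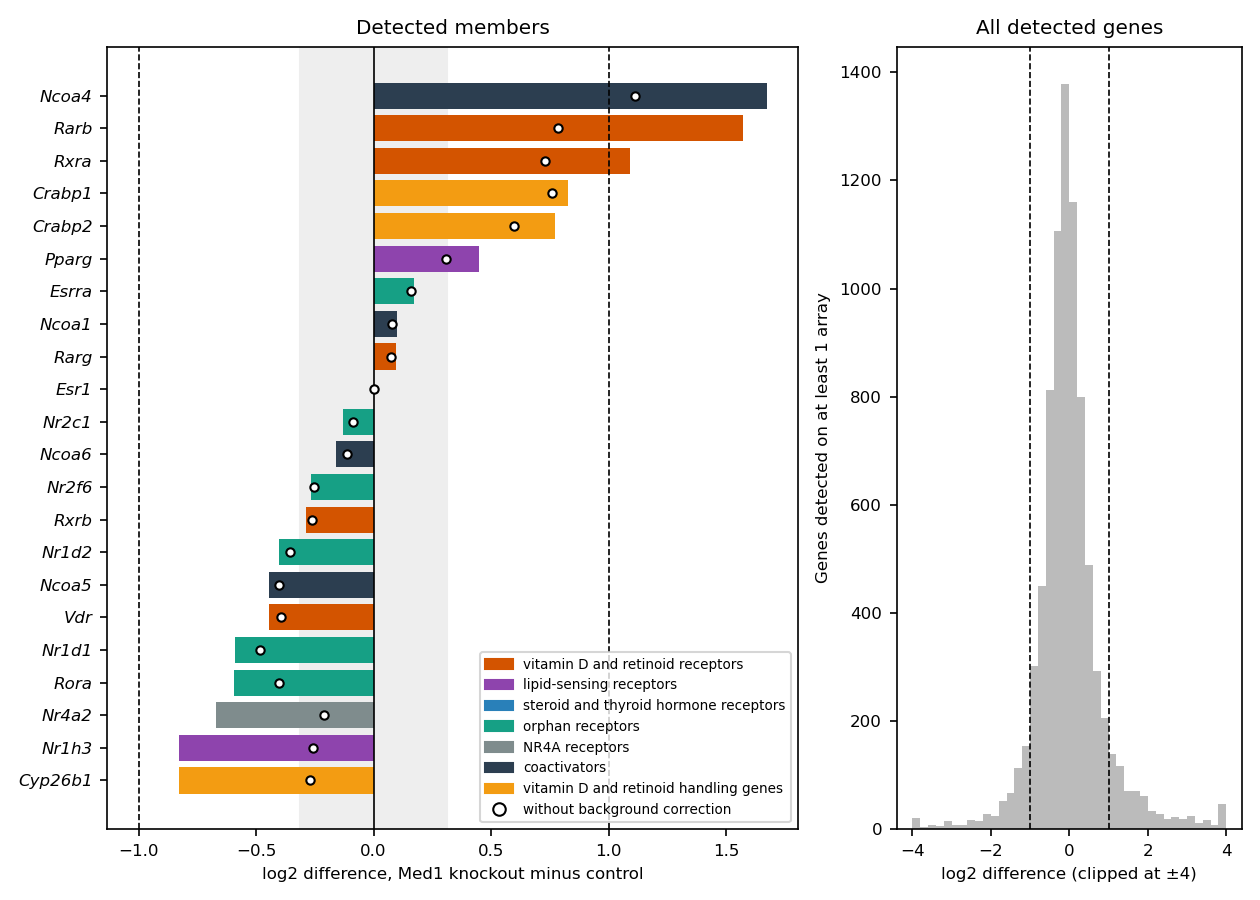
Left, log2 difference (Med1 knockout minus control) of each detected member by its brightest probe, coloured by role, with white points for the same probe without background correction, dashed lines at 2-fold and a grey band for 1 between-probe standard deviation (0.31). Right, the same difference for all 8217 detected genes. Ncoa4 alone stays past 2-fold without background correction, and the bars of Nr1h3, Nr4a2 and Cyp26b1 are measured differences of genes not detected on the knockout array.

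Among the genes that handle these ligands, the 2 cellular retinoic acid binding proteins were higher. Crabp1, which carries retinoic acid towards breakdown, read 2459 in the knockout and 1498 in the control, 1.77-fold higher. Crabp2, which delivers retinoic acid to its nuclear receptors, read 846 in the knockout and 584 in the control, 1.71-fold higher. Both differences were under 2-fold (0.83 and 0.77 on the log2 scale), and each rests on 1 probe, so no other probe checks it. Cyp26b1, an enzyme that hydroxylates retinoic acid for clearance, was detected on the control array only, at 213 in the knockout and 257 in the control, at least 1.18-fold lower. The vitamin D enzymes Cyp27b1, which makes the active hormone, and Cyp24a1, which inactivates it and is a standard readout of Vdr activity, were not detected on either array. Their signals were 162 in the knockout and 152 in the control for Cyp27b1, and 201 in the knockout and 188 in the control for Cyp24a1, among the background signals of both arrays.

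Of 4 lipid-sensing receptors measured, 1 was detected on both arrays. Pparg, the receptor of fat and sebaceous cells, read 559 in the knockout and 471 in the control by its single detected probe, 1.36-fold higher. Nr1h3, the oxysterol receptor LXR alpha, was detected on the control array only, at 206 in the knockout and 244 in the control, at least 1.04-fold lower. Ppara and Ppard were not detected. Of the steroid and thyroid hormone receptors, Esr1, the estrogen receptor alpha, read 296 in the knockout and 302 in the control, a log2 difference of 0.003 that turned negative under median scaling (-0.06), while Thra, Thrb and the glucocorticoid receptor Nr3c1 were not detected by the probes present. Of these 3, Thra came nearest to detection, at 225 in the knockout and 202 in the control, with detection p-values of 0.029 in the knockout and 0.084 in the control against the negative control beads of each.

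The orphan receptors, which have no classical hormone, were on the lower side in the knockout in 5 of 6 detected cases, with a median of -0.33 and none past 2-fold, beside 4577 of all 8217 detected genes on the lower side. Nr1d1, the heme-binding clock repressor REV-ERB alpha, read 723 in the knockout and 1065 in the control, 1.51-fold lower, and its other probe was 1.24-fold lower. Nr1d2, its close relative, read 1174 in the knockout and 1565 in the control, 1.32-fold lower. Rora, the activator that competes with them for the same sites, read 424 in the knockout and 584 in the control, 1.51-fold lower. All 3 clock receptors thus lay on the same side, each by more than 1 between-probe standard deviation for the brightest probe. Over all 8217 detected genes, 3638 differed by less than that standard deviation and the rest by as much or more. Nr2f6, a repressor also called EAR2, read 2790 in the knockout and 3387 in the control, and its 2 probes gave the same log2 difference of -0.27, within that standard deviation. Nr2c1 (-0.13) and Esrra (0.17), a regulator of mitochondrial genes, were also within it. Nr2c2, Nr2f1 and Nr2f2 were not detected. In the NR4A group of immediate early receptors, Nr4a2 was detected on the control array only, at 214 in the knockout and 247 in the control, at least 1.07-fold lower, and Nr4a1 and Nr4a3 were not detected.

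**Figure D3:**
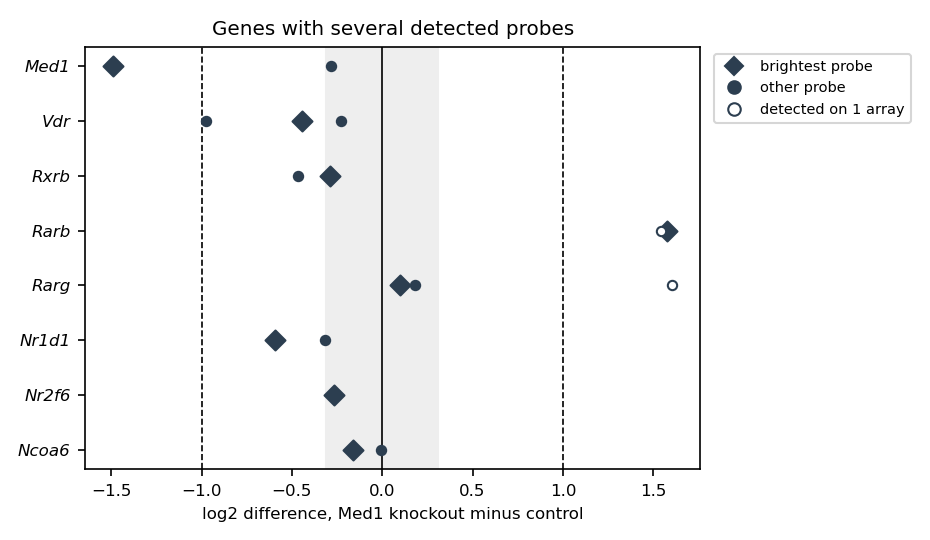
Log2 difference (Med1 knockout minus control) of every detected probe of Med1 and of the 7 members with several detected probes, with diamonds for the brightest probe, open circles for probes detected on 1 array, dashed lines at 2-fold and a grey band for 1 between-probe standard deviation. The probes of each gene lie on 1 side of 0, closely for Nr2f6 and Ncoa6 and widely for Med1, Vdr and Rarg, and 1 of the Rarb probes and 1 of the Rarg probes were detected in the knockout alone.

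Ncoa4 had the largest difference among the members. It encodes a protein first described as an androgen receptor coactivator and now known as the receptor that delivers ferritin to lysosomes. It read 714 in the knockout and 343 in the control, 3.19-fold higher by its only probe and 2.16-fold higher without background correction. The other coactivators lay nearer to 0. Ncoa1, a histone acetyltransferase of the p160 family, read 696 in the knockout and 688 in the control, a log2 difference of 0.10. Ncoa5 read 1406 in the knockout and 1915 in the control, 1.36-fold lower. Ncoa6, a scaffold of a histone methyltransferase complex, read 479 in the knockout and 542 in the control, a log2 difference of -0.16, with another detected probe at -0.01. The remaining p160 coactivators Ncoa2 and Ncoa3 were not detected, nor were Ncoa7 and the ligand-dependent corepressor Nrip1. Over the 7 members with several detected probes, the probes of each gene had the same sign, and for 5 of the 7 their measured differences spanned less than the between-probe standard deviation, Rarb among them with 1 probe detected in the knockout alone. Over the 18 members not detected, the brightest probe's signal ran between 145 (Ncoa7) and 225 (Thra) in the knockout and between 146 (Nr4a1) and 219.6 (Nr2f2) in the control, and no difference is given for them. Probes of 1 gene read the same RNA and so check the probes, not the genotype.

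Further genes of the receptor pathways were described from 7 lists of 127 genes in all. Among 109 measured genes, 60 were detected, and 8 lay past 2-fold on each side (7 on each side by lower bounds), beside 8.35% of all detected genes higher and 6.52% lower. The 60 had a median difference of -0.06, the same to 2 decimals as over all detected genes. The retinoid list held the largest differences, and its members went both ways. Among 8 detected genes, 3 were higher by 2-fold or more and 2 were lower. Stra6, the cell surface receptor that takes up retinol from its plasma carrier, read 253 in the knockout and 693 in the control, 5.45-fold lower. Aldh1a1, which makes retinoic acid from retinaldehyde, read 368 in the knockout and 739 in the control, 2.61-fold lower. Higher were Dhrs9, a retinol dehydrogenase detected on the knockout array only by both of its detected probes (323 in the knockout and 179 in the control by the brighter, at least 2.15-fold), and Tgm2, a transglutaminase induced by retinoic acid (1220 in the knockout and 599 in the control, 2.54-fold). Fabp5, the epidermal fatty acid binding protein that can carry retinoic acid, was added after its values were seen, at 4403 in the knockout and 1915 in the control, 2.44-fold higher. Without background correction Stra6, Fabp5 and Tgm2 stayed past 2-fold, and Aldh1a1 (1.93-fold lower) did not. The measured log2 difference of Dhrs9, which was not above background in the control, was then 0.86, also under 2-fold. Cyp26a1, the other listed retinoid gene whose promoter window holds a DR5 element, was not detected.

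**Figure D4:**
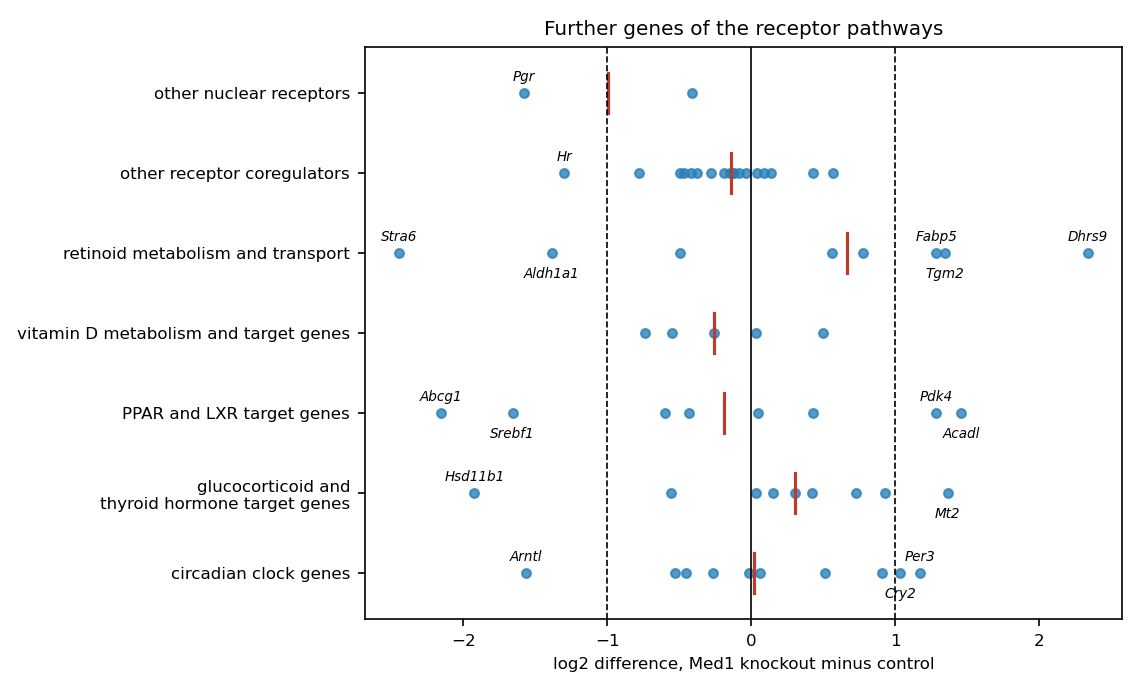
Log2 difference (Med1 knockout minus control) of each detected gene in the 7 further lists, 1 point per gene, with red bars for list medians, dashed lines at 2-fold and names for the genes past it. The retinoid, PPAR and LXR, and clock lists spread to both sides, and the vitamin D list has no gene past 2-fold.

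The vitamin D list had 5 detected genes of 14 measured and 0 past 2-fold by the brightest probe. They included Cd14, a lipopolysaccharide coreceptor (-0.74), the calcium channel Trpv6 (-0.55 by its brightest probe and -1.23 by another), the sodium-calcium exchanger Slc8a1 (0.50) and Pdia3 (-0.26). The PPAR and LXR target list split. Abcg1, a cholesterol exporter and LXR target, was detected on the control array only, at 208 in the knockout and 389.9 in the control, at least 2.72-fold lower, and Srebf1, the LXR-controlled regulator of fatty acid synthesis, read 342 in the knockout and 771 in the control, 3.15-fold lower. Acadl, an enzyme of fatty acid oxidation, read 1294 in the knockout and 595 in the control, 2.74-fold higher. Another detected Acadl probe was 1.74-fold higher. Pdk4, a fasting-induced kinase, was detected on the knockout array only and was at least 1.55-fold higher. Without background correction the measured differences of Abcg1 (-0.89) and Pdk4 (0.44) were under 2-fold.

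Among glucocorticoid and thyroid hormone target genes, Hsd11b1, which regenerates active glucocorticoid, was detected on the control array only by each of 3 probes. Its remaining probe was not detected on either array. Its brightest read 214 in the knockout and 377 in the control, at least 2.56-fold lower, and the other detected probes were at least 2.55-fold and 2.07-fold lower. Without background correction, though, the brightest differed by -0.80, under 2-fold. The metallothionein Mt2 was 2.57-fold higher, and Errfi1 (0.93) and Dusp1 (0.73) were also higher, by less than 2-fold (log2 differences). Of the other nuclear receptors, 14 of 16 measured were not detected. Pgr, the progesterone receptor, was detected on the control array only (at least 1.65-fold lower) and Nr6a1 differed by -0.41. Of 18 other coregulators detected, Hr alone passed 2-fold. Hr encodes hairless, a corepressor of Vdr and the thyroid hormone receptors that is required for hair regrowth, and it read 2548 in the knockout and 6104 in the control, 2.46-fold lower, with another probe 4.12-fold lower. Next in that list were Ppargc1b, detected on the control array only, Kat2b (0.57) and Kdm1a (-0.50).

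The clock genes that exchange feedback with Nr1d1, Nr1d2 and Rora lay on both sides. Arntl, which encodes the activator BMAL1 and whose promoter window above holds the RORE, read 377 in the knockout and 841 in the control, 2.96-fold lower and 2.15-fold lower without background correction. Its partner Clock, named after its value was seen, differed by -0.27. The detected period and cryptochrome genes, whose proteins inhibit the activity of the Clock and Arntl proteins, were on the higher side. Per3 read 378 in the knockout and 259 in the control, 2.25-fold higher, and Cry2 read 448 in the knockout and 309 in the control, 2.05-fold higher. Per1, with the E-box in its window, read 3522 in the knockout and 1993 in the control, 1.87-fold higher, with another probe 2.15-fold higher. Without background correction the differences of Per3 and Cry2 were 0.57 and 0.59 on the log2 scale, under 2-fold. Other processing settings, given in the closing section, also put them under 2-fold. The 10 detected clock genes split evenly, 5 on each side of 0, and their median was 0.02. Per2 (0.51), Bhlhe40 (-0.53), Nfil3 (-0.45), Dbp (0.06) and Tef (-0.02), which were added after their values were seen, complete the list. Tef also holds the E-box in its window, as do Cry1 and Bhlhe41, which were not detected. The clock time at which the cultures were collected is not in the labels, and its part in these differences was not tested.

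**Figure D5:**
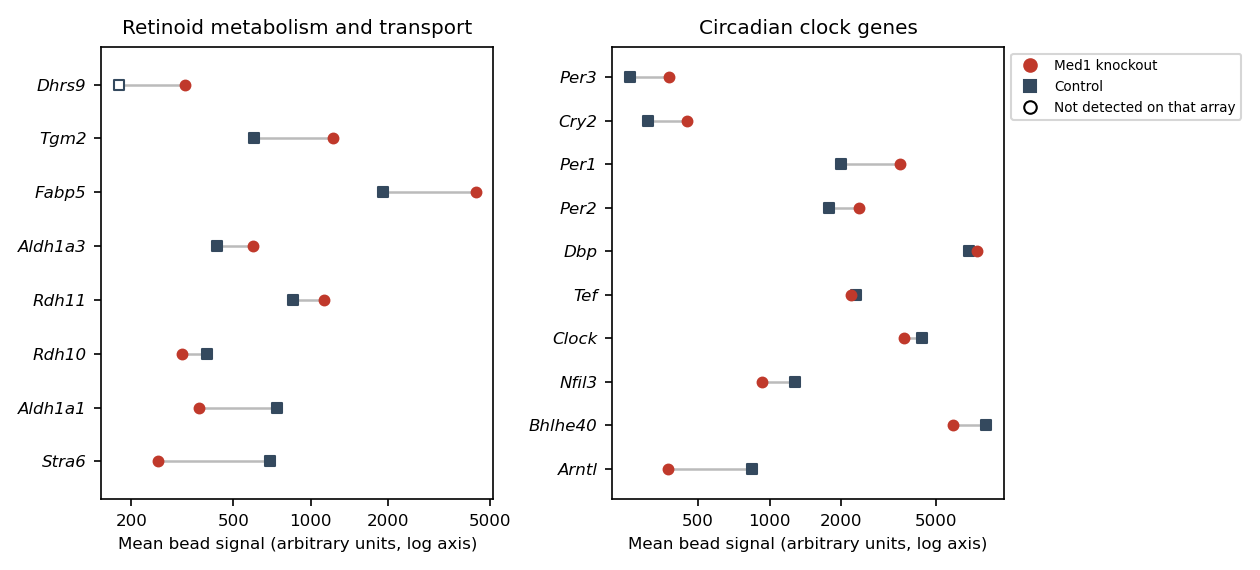
Mean bead signal (arbitrary units, log axis, background included) of the detected retinoid metabolism genes, left, and circadian clock genes, right, by the brightest probe, with circles for the Med1 knockout array, squares for the control array and open symbols where not detected, ordered by difference. Stra6 and Arntl lie at the bottom with the knockout far below the control, and Dhrs9, Per3 and Cry2 at the top with the knockout above it.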

How the data were processed

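Gene expression was measured on 2 Illumina bead arrays, 1 Med1 knockout and 1 control. Per the file headers, the deposited table gives the mean bead signal intensity of 25697 probes on a linear scale, not normalized between arrays, and a detection p-value of each probe, which per its values runs in 798 steps. Per the submitters' processing notes, GenomeStudio 2011.1 was used. The authors' deposited value table holds intensity values whose 2 columns share 1 distribution to within 0.28 units, by a method not given in the sources used here. The median signal was 207 on the knockout array and 205 on the control array, and 42.6% of probes were detected on the knockout array and 43.1% on the control array.

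From the signals, background was corrected by normexp with the negative control distribution recovered through the detection p-values. Values then received an offset of 16, quantile normalization and log2 (neqc, limma 3.58.1, R 4.3.3). This widens differences of dim probes. The platform annotation named 23978 probes, with symbols updated through the RefSeq gene table, and 1719 were unnamed here. Each gene was represented by its brightest probe. A gene was counted at 2-fold if detected on at least 1 array. For a gene detected on 1 array, "at least" gives a lower bound against the lowest detected value of the other array. The steps were tested on simulated data, with changes set only in probes well above background, and only the largest had to be recovered. Calls of dim probes were thus not checked, and no requirement was set for changes near 2-fold. Sequences are RefSeq's. Genes are named as follows: all members (undetected ones without a difference), Med1 and up to 4 detected genes of each further list with the largest absolute difference. Members and lists were chosen with earlier results of these data known. Alternatives varied the background correction, offset, normalization, source of values, detection filter, probe rule and threshold.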

Additional observations from a re-analysis of the deposited data

How the results depend on the processing

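With 1 array per genotype, no array could be left out. No paired analysis was possible because there is 1 array per genotype and no test. The number of members at least 2-fold higher, 3 as reported, was 1 without background correction and with the deposited values (Ncoa4 in both), 5 at 1.5-fold and 1 at 3-fold. The number lower, 0 as reported, was 5 at 1.5-fold, of which Nr1h3, Nr4a2 and Cyp26b1 were not detected on the knockout array, and 0 under the other alternatives. Rxra was under 2-fold also with normexp on the signal alone (0.90), with an offset of 50 (0.98) and without normalization between arrays (0.99), and the cause was not tested. Per3 and Cry2 were also under it with normexp on the signal alone (0.81 and 0.79) and an offset of 50 (0.95 and 0.89). The deposited values gave 0.55 for Per3 and 0.58 for Cry2. Cry2 alone was under 2-fold with median scaling (0.96) and without normalization between arrays (0.92). Over all genes, 686 higher and 536 lower became 340 and 206 without background correction and 343 and 209 with the deposited values. Normexp on the signal alone left 324 lower. Detection on both arrays, which tests fewer genes, left 402 higher and 299 lower. The 1.5-fold threshold gave 1203 higher and 1345 lower, and the 3-fold threshold 365 and 204. The members' median stayed between -0.25 and 0.003, and its sign turned only with detection on both arrays. The mean, taken in place of the median, was 0.05. The 49 named genes that were detected (Med1, 22 members and 26 genes of the further lists) were followed over 7 alternatives. Of 343 values, 281 moved by less than the between-probe standard deviation, 62 by more, and 0 of those past 2-fold turned sign. However, 33 values fell from past 2-fold to under it, 10 without background correction and 10 with the deposited values. In either of these settings, 29 of the 49 genes moved by less than that standard deviation. Esr1, at 0.003, was -0.06 with median scaling and -0.10 without normalization. Lower bounds, added after the data were seen, gave the same member counts. Dim genes near background carry the least certain sizes.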

Other observations

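Several corepressor and coactivator partners of the receptors were measured, and those given here were chosen after their values were seen. Hdac3, a histone deacetylase, read 3670 in the knockout and 4976 in the control, 1.38-fold lower. Tbl1x, a corepressor exchange factor, read 1041 in the knockout and 851 in the control, 1.35-fold higher, and its relative Tbl1xr1 differed by -0.19. The 2 detected probes of Gps2 disagreed, at 0.04 for the brighter and -0.93 for the dimmer. The acetyltransferase gene Ep300 differed by -0.15 and the methyltransferase gene Carm1, a partner of the p160 coactivators, by -0.42. None of these genes passed 2-fold by the brightest probe.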
